A study of Homo sapiens with 39 samples.

Results

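The genes described here are 39 members of the DNA replication and S-phase programme, taken by gene symbol from the 45446 rows of each deposited table. All 39 symbols were found in all 13 tables. All 39 also passed the filter on low values, a mean of at least 1 TPM (RNA abundance corrected for transcript length and library total) over the libraries, which 15003 genes passed. Before S phase the origin recognition complex, CDC6 and CDT1 load the MCM helicase on DNA, and CDC45 and the GINS complex then switch it on. Polymerases, the PCNA clamp, its loader, FEN1 and LIG1 copy the strands, while ribonucleotide reductase, thymidylate synthase and thymidine kinase supply the nucleotides. Most of these genes are switched on at the border of G1 and S phase by E2F transcription factors, so their summed RNA is a common readout of cycling cells.

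RNA was sequenced from HCT116, a human colorectal cancer cell line. The study asked how each of 12 isoforms of hepatocyte nuclear factor 4 alpha (HNF4A, a nuclear receptor of liver and gut epithelium) changes the transcriptome of this line. It used 13 groups with 3 libraries each. Parental cells were Flp-In T-REx HCT116 hosts without an HNF4A construct, and each other group was 1 stable line with a single inserted isoform that carries GFP at its C-terminus. All cells, the parental ones included, received doxycycline at 2.5 µg/ml for 48 h, and selection antibiotics were taken away at induction. Earlier culture differed, with blasticidin and zeocin for the parental cells and blasticidin and hygromycin B for the lines. There was no line with GFP alone, so the isoform, GFP, the earlier antibiotic and the derivation of a line cannot be told apart against the parental cells. The labels do not say that the 3 libraries of a group came from separate cultures, so p-values measure the spread between libraries, which may be technical. In standard nomenclature isoforms 1 to 3 start at promoter P1, isoforms 4 to 6 carry an added exon near the N-terminus, isoforms 7 to 9 start at promoter P2 and isoforms 10 to 12 have a further N-terminal form. Within each of these classes the last isoform (3, 6, 9 and 12) has a shortened C-terminus.

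The labels were checked against the data. HNF4A RNA stood between 30.81 and 31.95 TPM in the parental libraries and between 406.9 and 1109 TPM in the libraries of the lines. The epithelial markers EPCAM, KRT8, KRT18, KRT19 and CDH1 summed to 3040 to 3170 TPM in parental libraries and 2480 to 5580 TPM in the lines. The 5 fibroblast markers summed to 7.82 to 15.6 TPM, nearly all of it COL1A1, and the 5 leukocyte markers to 1.21 to 2.35 TPM over all libraries, with PTPRC never above 0.296 TPM. Read depth per library is not held in TPM. Summed over a table, the authors' mean normalized counts came to 50609338 in the lowest and 56136330 in the highest. The isoform 3 line had 1 library that stood apart: its replicate 1 had the 406.9 TPM of HNF4A above, against 833.5 and 771.8 TPM in its other libraries.

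The promoters of 35 of the 39 genes matched the RefSeq promoter table (GRCh38.p14, 250 bases before to 50 after each gene's start). Letters bound by E2F (TTTCCCGC, TTTGGCGC, TTCCCGCC or TTGGCGCC, on either strand, where the first can overlap the third and the second the fourth) stood in 23 of the 35, or 65.7%. The same letters stood in 5.3% of all 35116 promoters of the table and in 10.6% of the 10413 tested genes that matched. Letters of an HNF4A direct repeat (CAAAGTCCA or CAAAGGTCA, either strand) stood in 1 member, CLSPN, or 2.9%, against 0.792% of all promoters. The windows of ORC1, MCM2, POLD1 and TK1, which fell in the isoform 1 line too, held none of the E2F letters, which says only that these words are not in those windows. A match is a description of the window and not a measured binding site. Of the genes with values below, PCNA, E2F1 and E2F2 are shown because the first and second fell in the isoform 1 and isoform 2 lines while the third was not called in any line, and all carry E2F letters. Each line gives the 200 bases before the RefSeq start on the gene's own strand, 5′ to 3′, with the E2F letters in capitals.

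PCNA (20:5126623-5126822, minus strand): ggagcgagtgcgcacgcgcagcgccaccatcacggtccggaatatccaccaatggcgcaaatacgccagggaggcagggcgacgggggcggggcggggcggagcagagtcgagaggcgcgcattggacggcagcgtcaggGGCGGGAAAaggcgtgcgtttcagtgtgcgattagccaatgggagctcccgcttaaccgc

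E2F1 (20:33686386-33686585, minus strand): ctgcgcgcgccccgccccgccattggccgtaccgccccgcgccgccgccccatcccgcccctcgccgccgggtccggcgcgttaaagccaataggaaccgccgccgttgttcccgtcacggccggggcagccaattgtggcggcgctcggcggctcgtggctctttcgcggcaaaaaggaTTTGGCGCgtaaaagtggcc

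E2F2 (1:23531234-23531433, minus strand): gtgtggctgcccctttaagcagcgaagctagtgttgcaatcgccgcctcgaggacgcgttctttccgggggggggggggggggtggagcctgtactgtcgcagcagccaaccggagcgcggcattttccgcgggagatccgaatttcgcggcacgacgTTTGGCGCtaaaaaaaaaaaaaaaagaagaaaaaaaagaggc

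The E2F letters began 60 bases before the start of PCNA, where 2 of the searched words overlap, 20 bases before that of E2F1 and 42 bases before that of E2F2. The E2F2 window thus holds the same word, TTTGGCGC, as that of E2F1.

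The replication genes were lower than in parental cells in the isoform 1 line above all, and next in the isoform 2 line. In the isoform 1 line 36 of the 39 genes fell, with a median level at 54.6% of parental cells, and MCM2, a subunit of the replicative helicase, had the lowest value at 44.7%. In the isoform 2 line 22 fell, with a median of 67.7%. The isoform 10 and isoform 11 lines had 13 and 6 genes lower, and no member rose past the threshold, given below, in any of the 12 lines. The isoform 3, 4, 5, 6, 9 and 12 lines had none past the threshold in either direction.

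A gene was called where limma's test on log2(TPM + 1) gave a Benjamini-Hochberg adjusted p under 0.05 over all 15003 genes and the difference was at least 0.5 (log2). Differences on this scale understate those of low genes. In the isoform 1 line 36 members were lower and 0 higher, beside 12.7% of all genes lower and 7.63% higher. Without the minimum of 0.5, 38 of the members were lower, beside 38.7% of all genes. Their median difference was -0.86 (log2), and that of all genes -0.107, so the members' median lay 0.76 under the shift of all genes. In the isoform 2 line 22 were lower and 0 higher, beside 9.73% and 6.63% of all genes, and 37 were lower without the minimum, beside 35.6%. Here the median was -0.56 and that of all genes -0.09. With libraries rescaled by the median of ratios over genes, 32 members were lower in the isoform 1 line and 13 in the isoform 2 line. The isoform 11 line then had 2 and the isoform 7 line 0. The shares of all genes above belong to the unscaled fit, and those under this scaling are not given here. In these bulk samples fewer cells in S phase and less RNA per cell cannot be told apart.

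The isoform 10 line followed with 13 members lower and 0 higher, beside 3.43% of all genes lower and 3.73% higher. All but 1 of the 39, that is 38, were lower without the minimum, beside 20.4% of all genes, and the median was -0.44. In the isoform 11 line 6 were lower and 0 higher, beside 5.01% and 3.21%, 36 were lower without the minimum, beside 24%, and the median was -0.37. That count of 6 became 12 without its replicate 1 and 3 without its replicate 3. The isoform 10 and isoform 11 lines thus had small differences in nearly every member, most of them under 0.5.

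The isoform 7 and isoform 8 lines each had 1 member lower. In the isoform 7 line it was UHRF1, beside 6.07% of all genes lower and 3.26% higher, and 34 members were lower without the minimum, beside 26.2%. This count of 1 became 3 without parental replicate 3 or without isoform 7 replicate 2, and 2 without parental replicate 2, isoform 7 replicate 1 or isoform 7 replicate 3. In the isoform 8 line it was E2F1, beside 3.36% lower and 2.96% higher, and 23 were lower without the minimum, beside 17.5%. E2F1 was no longer called there without parental replicate 1, which left 0. The medians were -0.29 and -0.22.

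In the isoform 3 line 0 members were called, beside 1.47% of all genes lower and 2.45% higher, yet 22 were lower without the minimum, beside 14.7%. The median was -0.21, and -0.28 without the library that stood apart, which left 0 called. The isoform 9 line had 0 called beside 2.73% lower and 1.47% higher, and 6 lower without the minimum beside 11.8%, a share of the members near that of all genes. The isoform 12 line had 0 called beside 0.886% lower and 1.64% higher, and 9 lower without the minimum beside 6.65%. Medians were -0.13 in the isoform 9 line and -0.12 in the isoform 12 line.

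The isoform 4, 5 and 6 lines lay nearest to parental cells. The isoform 4 line had 0 members called beside 1.67% of all genes lower and 1.15% higher, and 2 lower without the minimum beside 10.1%. The isoform 5 line had 0 beside 0.513% and 1.52%, and 4 lower without the minimum beside 5.22%. The isoform 6 line had 0 beside 0.6% and 0.74%. Without the minimum 1 gene, SLBP, was lower there beside 4.13%, and 2 genes, MCM6 and RFC4, were higher. Median levels were 94.6%, 96.2% and 101% of parental cells in the isoform 4, 5 and 6 lines. A p that misses the threshold does not show that these lines equal the parental cells: the largest standard error of a member was 0.116 (log2).

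**Figure D1:**
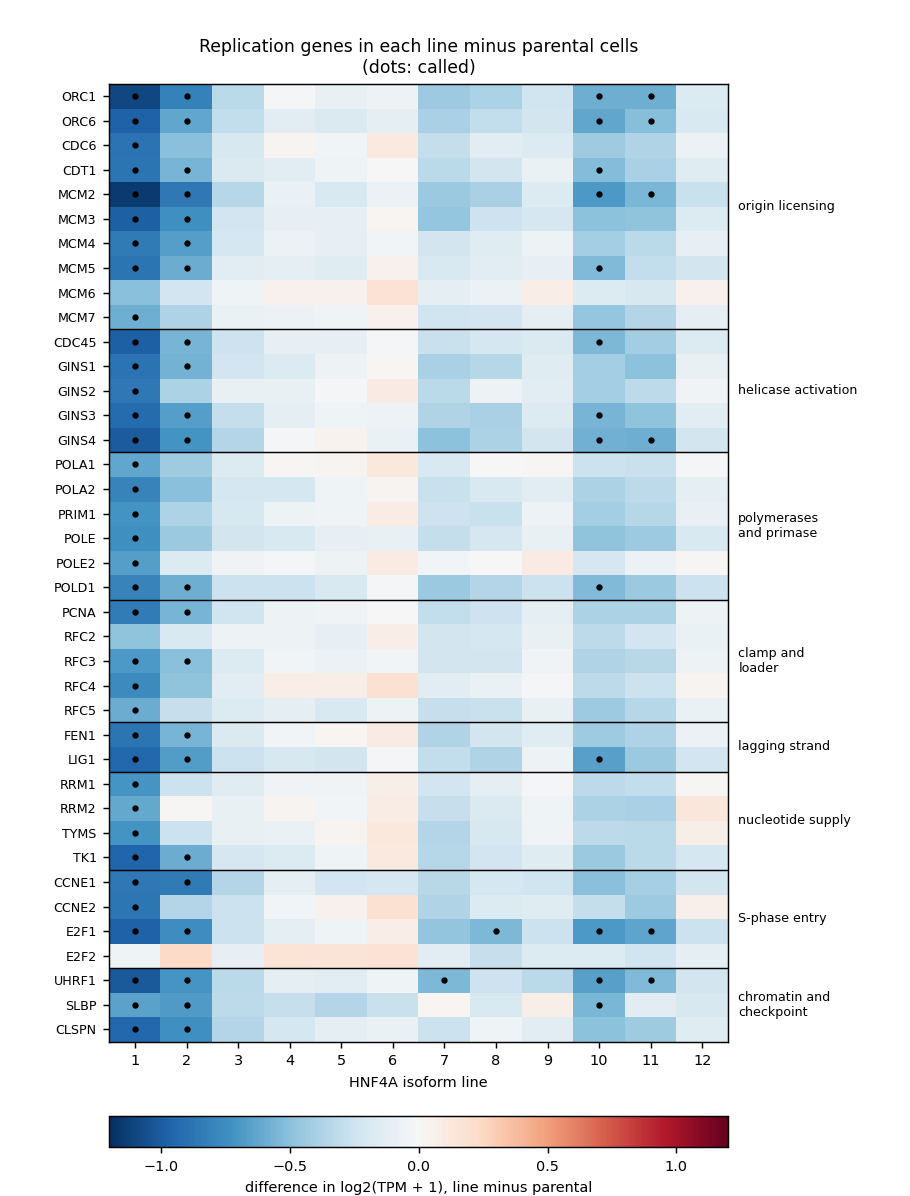
Each cell is the difference in log2(TPM + 1) between a line (columns, isoforms 1 to 12) and parental cells for 1 of the 39 genes (rows, grouped by role), blue for lower and red for higher, with dots on called genes. The columns of isoforms 1, 2, 10 and 11 hold 36, 22, 13 and 6 dots, and those of isoforms 3, 4, 5, 6, 9 and 12 hold none.

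The libraries of the isoform 1 line had member medians of -0.853, -0.773 and -0.887 (log2, against the parental mean), and those of the isoform 2 line -0.48, -0.524 and -0.656. No library of any other line lay as low as the isoform 1 libraries. The isoform 10 line gave -0.351, -0.415 and -0.569, so its lowest library overlapped the isoform 2 range. Its isoform 11 counterpart gave -0.268, -0.371 and -0.454. The isoform 3 line split, with -0.044 in replicate 1 and -0.272 and -0.296 in the others, and the low HNF4A value belonged to that same replicate 1. Its part in the result was not tested. Parental libraries lay at 0.003, 0.038 and -0.034.

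**Figure D2:**
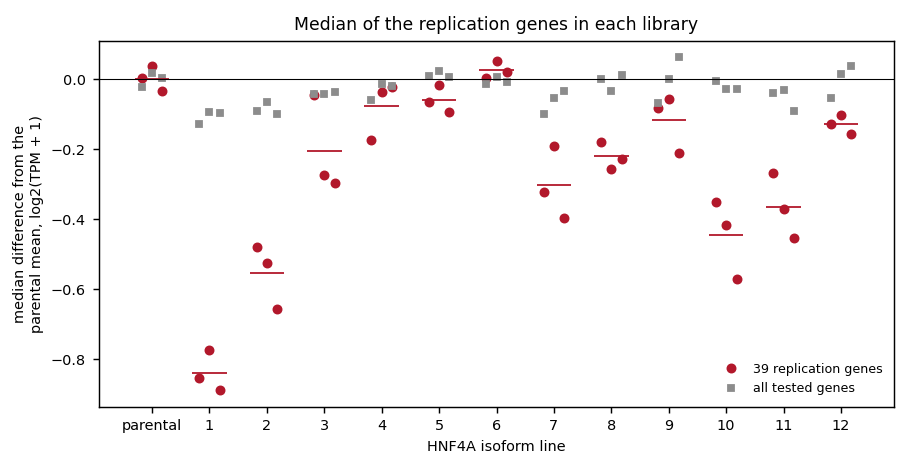
Median over the 39 genes (red circles) and over all tested genes (grey squares) of the difference in log2(TPM + 1) of each library from the parental mean, by line, with red bars at the mean of a line's libraries. The 3 isoform 1 libraries lie between -0.887 and -0.773, and 1 isoform 3 library lies at -0.044, away from the other two.

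The level of the construct differed between lines as well. Mean HNF4A was lowest in the isoform 2 line at 613.5 TPM and the isoform 11 line at 613.8 TPM, and highest in the isoform 6 line at 1071 TPM. The isoform 1 line, with the lowest replication genes, had 782.4 TPM, and the isoform 4 line, close to parental cells, 855.8 TPM. The isoform 12 line, also close to parental cells, had 677.7 TPM. As a description, with 1 point for each of the 12 lines and parental libraries shared by all, the members' median difference and mean HNF4A had a Pearson r of 0.51 and a Spearman rho of 0.671. The part of the construct's level in these results was not tested.

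Origin licensing holds ORC1 and ORC6 of the origin recognition complex, the loaders CDC6 and CDT1, and MCM2 to MCM7, the 6 subunits of the helicase. Of these 10 genes 9 fell in the isoform 1 line (differences of -1.15 to -0.50 over all 10, median -0.89), 7 in the isoform 2 line (median -0.61), 5 in the isoform 10 line and 3 in the isoform 11 line. ORC1 (1:52372829-52404459, GRCh38, GENCODE 29), which opens the assembly of the origin complex, measured 32.4, 33.6 and 29.7 TPM in parental libraries, 14.2, 15 and 14 TPM in the isoform 1 line, 18.8, 17.4 and 17.3 TPM in the isoform 2 line and 30.2, 23.8 and 22.4 TPM in the isoform 3 line. The isoform 4 to 6 lines gave 30.1, 32.6 and 31.5 TPM, 29.4, 30.7 and 29.8 TPM and 29.3, 31.4 and 30.8 TPM in turn. Every library of these last 3 lines lay close to or within the parental range, and the isoform 1 and isoform 2 libraries lay far below it. The isoform 7, 8 and 9 lines gave 22.5, 24.9 and 22.6 TPM, 24.6, 24.3 and 24.1 TPM and 27.6, 28.2 and 24.8 TPM. The isoform 10, 11 and 12 lines gave 21.7, 22.7 and 18.2 TPM, 23.9, 20.4 and 18.7 TPM and 28.6, 28.4 and 28.3 TPM. All of these 18 libraries were below the lowest parental one. ORC1 fell by 1.09 (log2) in the isoform 1 line (SE 0.082, adjusted p = 1.67e-12, limma, n = 3 against 3), to 45.2% of parental cells.

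MCM2 (3:127598223-127622436) lies over TPRA1 on the other strand, and whether the counting used strand is not given in the sources used here. MCM2 measured 153, 157 and 154 TPM in parental libraries, 70.8, 71.6 and 65.3 TPM in the isoform 1 line, 90.1, 87.6 and 77 TPM in the isoform 2 line and 150, 113 and 107 TPM in the isoform 3 line. The isoform 4, 5 and 6 lines had 140, 149 and 150 TPM, 136, 143 and 131 TPM and 144, 149 and 151 TPM. The highest library of any line thus stayed under the lowest parental library. The isoform 7, 8 and 9 lines had 114, 118 and 107 TPM, 121, 113 and 119 TPM and 142, 146 and 127 TPM. The isoform 10, 11 and 12 lines had 99.5, 98.1 and 89.3 TPM, 117, 105 and 96.8 TPM and 128, 132 and 125 TPM. MCM2 fell by 1.15 (log2, SE 0.081, adjusted p = 3.93e-13, limma) in the isoform 1 line and by 0.86 (adjusted p = 2.6e-10, limma) in the isoform 2 line.

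MCM6, a subunit of the same helicase ring, moved less. It measured 99.8, 106 and 99.4 TPM in parental libraries, 69.4, 75.2 and 70.7 TPM in the isoform 1 line and 89.8, 88.3 and 82.7 TPM in the isoform 2 line. Its difference was -0.50 (log2, 95% interval -0.59 to -0.41) in the isoform 1 line, just inside the minimum and so not called, against -1.15 for MCM2. The ratio of MCM2 to MCM6, in TPM, ran from 1.48 to 1.55 in parental libraries, from 0.923 to 1.02 in the isoform 1 line and from 0.931 to 1.00 in the isoform 2 line. In the isoform 10 line it ran from 1.02 to 1.07 and in the isoform 6 line from 1.26 to 1.32. The RNA of 2 subunits that assemble in equal number thus changed unequally. This ratio was chosen after the values were seen and has no test.

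Helicase activation is carried by CDC45 and GINS1 to GINS4, which turn the loaded MCM ring into a moving helicase. All 5 fell in the isoform 1 line (-1 to -0.86), 4 in the isoform 2 line, 3 in the isoform 10 line and 1 in the isoform 11 line. GINS4 measured 27.6, 26.2 and 25.8 TPM in parental libraries, 12.5, 13.8 and 12 TPM in the isoform 1 line, 16.9, 15.9 and 14.4 TPM in the isoform 2 line and 23.9, 19.7 and 18.6 TPM in the isoform 3 line. The isoform 4 to 6 lines gave 25.7, 26.1 and 26.2 TPM, 27.6, 26.8 and 27.4 TPM and 25.4, 25.4 and 24.2 TPM. Isoform 4 and 5 libraries overlapped the parental range and the isoform 6 libraries lay just under it. GINS4 gave 17.8, 19 and 18.7 TPM in the isoform 7 line, 19.8, 20.3 and 20.1 TPM in the isoform 8 line and 23.6, 22.9 and 21.3 TPM in the isoform 9 line. It gave 18.4, 17.8 and 16.2 TPM in the isoform 10 line, 18.1, 18.2 and 15.7 TPM in the isoform 11 line and 22.7, 23.1 and 22.2 TPM in the isoform 12 line. GINS4 was called in 4 lines, those of isoforms 1, 2, 10 and 11, at 48.2%, 59.4%, 65.9% and 65.4% of parental cells, with SDs of 0.937, 1.24, 1.17 and 1.45 TPM (n = 3 each).

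The polymerase and primase genes hold POLA1, POLA2 and PRIM1, which start each strand, POLE and POLE2 of the leading strand polymerase and POLD1 of the lagging strand polymerase. All 6 fell in the isoform 1 line (-0.80 to -0.62), and only POLD1 was called in the isoform 2 line and in the isoform 10 line. POLD1 (19:50384204-50418016) measured 70.9, 70 and 68.3 TPM in parental libraries, 40, 41.3 and 37.4 TPM in the isoform 1 line, 47.9, 46.6 and 43.9 TPM in the isoform 2 line and 67.1, 54.9 and 53.3 TPM in the isoform 3 line. Its values were 57.6, 59.3 and 57.8 TPM in the isoform 4 line, 62.3, 61.8 and 60.7 TPM in the isoform 5 line and 68.7, 68.8 and 68.8 TPM in the isoform 6 line. The isoform 6 libraries alone reached the parental range. In the isoform 7, 8 and 9 lines the values were 50.4, 51.5 and 50.7 TPM, 52.5, 55.9 and 55.1 TPM and 61.9, 58.5 and 54.3 TPM. In the isoform 10, 11 and 12 lines they were 49.4, 48.3 and 46.7 TPM, 56.5, 49.7 and 46.5 TPM and 60.1, 57.6 and 57 TPM. POLE2 fell by 0.66 (log2, adjusted p = 2.23e-10, limma) in the isoform 1 line but its difference in the isoform 2 line was -0.16 (adjusted p = 0.0271, limma), under the minimum.

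The clamp group holds PCNA, the ring that tethers polymerases to DNA, and RFC2 to RFC5, subunits of its loader. Of the 5 genes 4 fell in the isoform 1 line, RFC2 being the exception at -0.48, and 2, PCNA and RFC3, in the isoform 2 line. PCNA (20:5114953-5126626) has 3 named pseudogenes, RFC3 and RFC5 1 each, which could share their reads. It measured 570, 582 and 549 TPM in parental libraries, 304, 336 and 306 TPM in the isoform 1 line, 397, 395 and 363 TPM in the isoform 2 line and 535, 466 and 442 TPM in the isoform 3 line. In the isoform 4, 5 and 6 lines the values were 505, 554 and 580 TPM, 543, 568 and 547 TPM and 569, 567 and 570 TPM. At least 1 library of each of these 3 lines fell inside the parental range. PCNA stood at 476, 491 and 415 TPM, 506, 453 and 475 TPM and 523, 560 and 497 TPM in the isoform 7, 8 and 9 lines. It stood at 452, 454 and 398 TPM, 441, 432 and 430 TPM and 537, 556 and 538 TPM in the isoform 10, 11 and 12 lines. PCNA fell by 0.84 (log2, SE 0.065, adjusted p = 2.66e-12, limma) in the isoform 1 line and by 0.56 (adjusted p = 1.74e-08, limma) in the isoform 2 line, where it was at 67.9% of parental cells.

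Of the lagging strand genes, FEN1 trims the flaps of Okazaki fragments and LIG1 seals them. Both fell in the isoform 1 and isoform 2 lines, and LIG1 also in the isoform 10 line. LIG1 (19:48115445-48170603) measured 53.2, 58.8 and 54.3 TPM in parental libraries, 28.8, 30.5 and 26.1 TPM in the isoform 1 line, 34.7, 36 and 32.9 TPM in the isoform 2 line and 53.7, 45 and 40.4 TPM in the isoform 3 line. In the isoform 4, 5 and 6 lines it measured 46.3, 50.4 and 48.9 TPM, 45.8, 50.4 and 46.5 TPM and 53.6, 56.9 and 55 TPM. The isoform 6 libraries lay within the parental range and those of isoforms 4 and 5 below it. LIG1 gave 42, 48 and 44.4 TPM, 41.6, 44 and 43.4 TPM and 52.6, 55.8 and 50.7 TPM in the isoform 7, 8 and 9 lines. It gave 34.8, 36.2 and 33.8 TPM, 43, 41.3 and 36.8 TPM and 46.7, 49.1 and 45.8 TPM in the isoform 10, 11 and 12 lines. LIG1 was at 51.3% of parental cells in the isoform 1 line, 62.3% in the isoform 2 line and 63% in the isoform 10 line.

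The nucleotide supply genes are RRM1 and RRM2 of ribonucleotide reductase, TYMS and TK1. All 4 fell in the isoform 1 line (-0.95 to -0.61), and TK1 alone in the isoform 2 line. TK1, which salvages thymidine, measured 321, 319 and 306 TPM in parental libraries, 161, 171 and 155 TPM in the isoform 1 line, 208, 219 and 199 TPM in the isoform 2 line and 323, 262 and 245 TPM in the isoform 3 line. The isoform 4 to 6 lines had 271, 286 and 289 TPM, 300, 312 and 299 TPM and 328, 348 and 352 TPM. All 3 isoform 6 libraries lay above the parental range, though the difference was 0.12 (log2, adjusted p = 0.302, limma). TK1 gave 252, 263 and 233 TPM, 277, 262 and 268 TPM and 286, 302 and 268 TPM in the isoform 7, 8 and 9 lines. It gave 244, 236 and 213 TPM, 266, 249 and 245 TPM and 287, 266 and 264 TPM in the isoform 10, 11 and 12 lines.

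RRM2, the regulated subunit of ribonucleotide reductase, separated the isoform 1 line from the isoform 2 line. It has 3 named pseudogenes, and TYMS 2. It measured 229, 242 and 214 TPM in parental libraries, 140, 172 and 138 TPM in the isoform 1 line and 241, 246 and 203 TPM in the isoform 2 line. Isoform 2 libraries covered the parental range and isoform 1 libraries lay wholly under it. RRM2 fell by 0.61 (log2, SE 0.091, adjusted p = 1.11e-06, limma) in the isoform 1 line, and in the isoform 2 line its difference was 0.01 (95% interval -0.18 to 0.19).

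The S-phase entry genes are the cyclins E, CCNE1 and CCNE2, which drive CDK2 into S phase, and the transcription factors E2F1 and E2F2. CCNE1, CCNE2 and E2F1 fell in the isoform 1 line and CCNE1 and E2F1 in the isoform 2 line. E2F1 (20:33675683-33686404) measured 33.2, 29.2 and 27 TPM in parental libraries, 15.8, 15.2 and 13 TPM in the isoform 1 line, 18.3, 18 and 15.5 TPM in the isoform 2 line and 30.8, 22.9 and 21.3 TPM in the isoform 3 line. E2F1 in the isoform 4, 5 and 6 lines was at 26.9, 29.7 and 25.1 TPM, 28.9, 30.2 and 27 TPM and 31.8, 32.5 and 30.5 TPM. Each of these 3 lines overlapped the parental range. E2F1 stood at 22.5, 21.7 and 19.5 TPM, 20.5, 19.9 and 20.1 TPM and 28, 25.8 and 20.5 TPM in the isoform 7, 8 and 9 lines. It stood at 18.9, 20.4 and 15.3 TPM, 20.9, 18.8 and 16.9 TPM and 24.9, 26.4 and 22.6 TPM in the isoform 10, 11 and 12 lines. With UHRF1 it was called in more lines than any other member, 5 of 12: E2F1 fell in the isoform 1, 2, 8, 10 and 11 lines, by 0.97 (log2, SE 0.116) in the first of them.

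E2F2, a second activating E2F with the same E2F word in its window, was not called in any line. It measured 15.3, 15.3 and 13.8 TPM in parental libraries, 16.8, 13.7 and 12.6 TPM in the isoform 1 line, 20.9, 17.8 and 14.5 TPM in the isoform 2 line and 15.6, 13.6 and 12.1 TPM in the isoform 3 line. The isoform 4, 5 and 6 lines had 16.3, 17.4 and 16.1 TPM, 17.2, 17.3 and 15.2 TPM and 17.1, 17.6 and 15.7 TPM. The isoform 4 and 6 libraries lay above the parental range. The isoform 1 libraries spread across it, and the isoform 2 libraries ran from within it to above it. E2F2 gave 14.2, 13.9 and 12.1 TPM, 12, 11.8 and 12.2 TPM and 13.5, 14 and 11.9 TPM in the isoform 7, 8 and 9 lines. It gave 14.3, 13.8 and 11.5 TPM, 14.3, 11.6 and 11.4 TPM and 13.7, 13.7 and 13 TPM in the isoform 10, 11 and 12 lines. Its difference was -0.05 (log2, 95% interval -0.27 to 0.17) in the isoform 1 line and 0.23 (95% interval 0.01 to 0.45, adjusted p = 0.0633, limma) in the isoform 2 line. The isoform 8 libraries all lay below the parental range. E2F2 differed there by -0.28 (95% interval -0.49 to -0.06, adjusted p = 0.043, limma), under the minimum. The authors' own test, which has no minimum, gave E2F2 differences of 0.37, 0.21 and 0.18 (log2) in the isoform 2, 4 and 6 lines. For the isoform 8 line it gave -0.26. Each had an adjusted p under 0.05 in the authors' test, and no other line did. The ratio of E2F1 to E2F2, in TPM, ran from 1.91 to 2.17 in parental libraries, from 0.94 to 1.11 in the isoform 1 line and from 0.875 to 1.07 in the isoform 2 line. This ratio was also chosen after the values were seen, and it has no test.

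The last group holds UHRF1, which brings DNA methylation to new DNA, SLBP, which binds histone mRNA in S phase, and CLSPN, a checkpoint adaptor at the fork. All 3 fell in the isoform 1 and isoform 2 lines. UHRF1 (19:4903080-4962154) measured 103, 108 and 102 TPM in parental libraries, 51.8, 51.4 and 50.5 TPM in the isoform 1 line, 67.2, 62 and 60.7 TPM in the isoform 2 line and 97.7, 76.9 and 76 TPM in the isoform 3 line. Values in the isoform 4, 5 and 6 lines were 92.3, 97 and 101 TPM, 95.1, 96.6 and 94.3 TPM and 95.4, 102 and 105 TPM. Of all lines, only the isoform 6 line reached the parental range, with its highest library inside it. UHRF1 gave 69.2, 75.6 and 68.7 TPM, 88.4, 84.1 and 90.3 TPM and 83.1, 89.1 and 77.4 TPM in the isoform 7, 8 and 9 lines. It gave 68.4, 65.5 and 63.7 TPM, 77.8, 72.8 and 65.9 TPM and 87.2, 90.4 and 89.7 TPM in the isoform 10, 11 and 12 lines. UHRF1 fell in the isoform 1, 2, 7, 10 and 11 lines, by 1.01 (log2, SE 0.067, adjusted p = 9.85e-14, limma) in the first of them.

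SLBP had an order of its own. It measured 155, 163 and 154 TPM in parental libraries, 97, 104 and 101 TPM in the isoform 1 line, 97.7, 102 and 94 TPM in the isoform 2 line and 111, 110 and 101 TPM in the isoform 10 line. These 3 lines are those in which it was called. In the isoform 7 line it measured 162, 172 and 146 TPM and in the isoform 9 line 161, 174 and 161 TPM, so that both overlapped parental cells. In the isoform 4, 5 and 6 lines, where most members were near parental levels, it was the lowest member, at -0.28, -0.35 and -0.27 (log2).

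**Figure D3:**
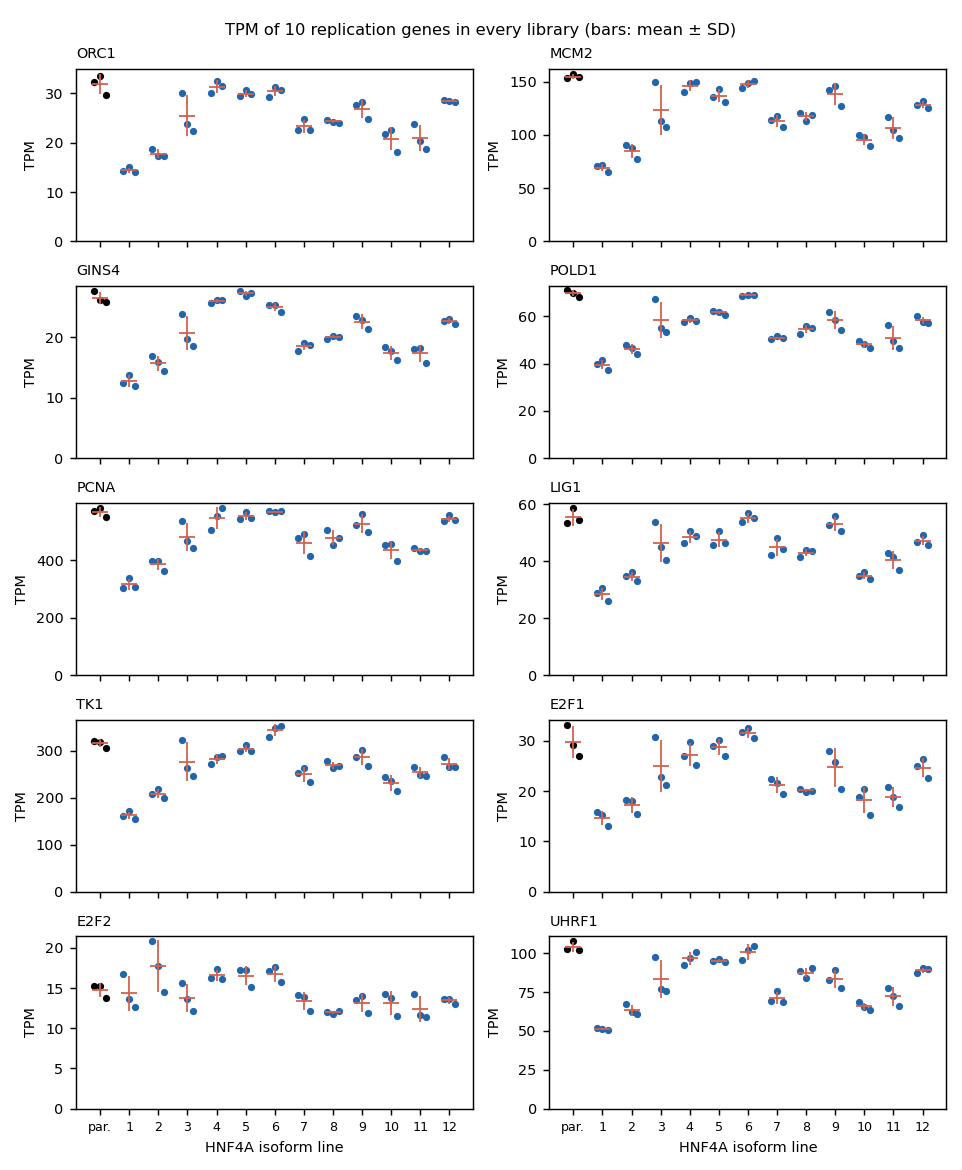
TPM of 10 replication genes in every library of the parental cells (black) and of the lines of isoforms 1 to 12 (blue), with red bars for the mean ± SD of 3 libraries and each axis starting at 0. ORC1, MCM2 and UHRF1 in the isoform 1 line lie at 45.2%, 44.7% and 49.2% of parental cells, and E2F2 at 97%.

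Over the 13 group means the members' log2 levels ran in parallel. Among 741 pairs of members the median Pearson correlation was 0.938, from -0.424 to 0.991. These points share the parental group, the libraries and the TPM scale, so the values describe the table and carry no p. E2F2 stood outside, with a median correlation of 0.164 to the other members, then SLBP with 0.615 and RRM2 with 0.78.

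The lines were next compared without the parental libraries. All 39 members differed among the 12 lines by limma's F test with a range of line means of at least 0.5 (log2), beside 36.6% of all genes. The range was largest for MCM2, at 1.09, and smallest for E2F2, at 0.51.

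Between classes of isoforms, each line counted as 1 unit, and limma was fitted on the 12 line means with terms for the N-terminal and the C-terminal form. The 4 to 6 class exceeded the 1 to 3 class in 17 members and fell below it in 0, beside 6.04% of all genes higher and 4.54% lower. The median difference was 0.49 (log2), from 0.13 for E2F2 to 0.68 for MCM2 and ORC1. MCM2 differed by 0.68 (SE 0.114, adjusted p = 0.00382, limma) and E2F1 by 0.63 (SE 0.093, adjusted p = 0.0025, limma). The count of 17 became 10 when the libraries numbered 3 were left out, and 22 without the isoform 3 library that stood apart. It became 6 under the median-of-ratios scaling of libraries, for which the share of all genes is not given here.

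The 7 to 9 class exceeded the 1 to 3 class in 2 members, CLSPN by 0.53 and SLBP by 0.52, and was lower in 0, beside 0.6% of all genes higher and 2.33% lower. The median was 0.31. This count was 1 without the libraries numbered 3, and 0 under the median-of-ratios scaling or with no filter on low values. Between the 7 to 9 class and the 4 to 6 class 0 members passed, beside 1.94% of all genes higher and 3.78% lower. An unadjusted p under 0.05 was found for 15 members, beside 34.2% of all genes, so the members' share was near that of all genes. The median over the members was -0.17. Between the 10 to 12 class and the 7 to 9 class 0 passed, beside 0% and 0% of all genes, and 3 members had an unadjusted p under 0.05, beside 7.55%. The short C-terminus against the other forms gave 0 members, beside 0% higher and 0.0133% lower. Here 37 members had an unadjusted p under 0.05, all of them higher with the short C-terminus (median 0.25), beside 18.2% of all genes.

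Single lines were then set against each other, in 8 pairs chosen after the comparisons with parental cells were seen. The isoform 3 line exceeded the isoform 1 line in 33 members and was lower in 0, beside 5.11% of all genes higher and 4.27% lower. MCM2 was higher by 0.81 (log2, SE 0.081, adjusted p = 2.51e-09, limma), TK1 by 0.76 and PCNA by 0.60, while E2F2 differed by -0.05 (adjusted p = 0.724, limma). Without the isoform 3 library that stood apart 24 members were called. The other pairs of a short and a long C-terminus gave 1, 0 and 0 members. The isoform 12 line exceeded the isoform 10 line in 1 member, RRM2, by 0.52 (adjusted p = 0.00012, limma), and was lower in 0, beside 0.86% and 1.55%, with a median of 0.34. RRM2 was no longer called without isoform 10 replicate 3 or without isoform 12 replicate 2, which left 0, and 3 members were called without isoform 10 replicate 2. The isoform 9 line against the isoform 7 line gave 0 in both directions, beside 0.9% higher and 1.37% lower (median 0.19), and the isoform 6 line against the isoform 4 line 0, beside 1.44% and 0.733% (median 0.12). Whether the effect of the short C-terminus differs between the classes was not tested.

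The isoform 2 line exceeded the isoform 1 line in 2 members, RRM2 by 0.62 (adjusted p = 1.35e-05, limma) and CCNE2 by 0.52 (adjusted p = 0.000428, limma), and was lower in 0, beside 0.846% of all genes higher and 1.21% lower. The median was 0.29. This count ran from 1, without isoform 1 replicate 1 or isoform 2 replicate 1, to 6, without isoform 1 replicate 2, and was 5 without isoform 2 replicate 3. The isoform 10 line was lower than the isoform 7 line in 1 member, SLBP, which fell by 0.57 (log2), and higher in 0, beside 1.02% lower and 3.97% higher. The isoform 11 line against the isoform 8 line gave 0 higher and 0 lower, beside 0.367% and 0.827% (median -0.15), and the isoform 12 line against the isoform 9 line 0 and 0, beside 2.52% and 0.607% (median 0.01).

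**Figure D4:**
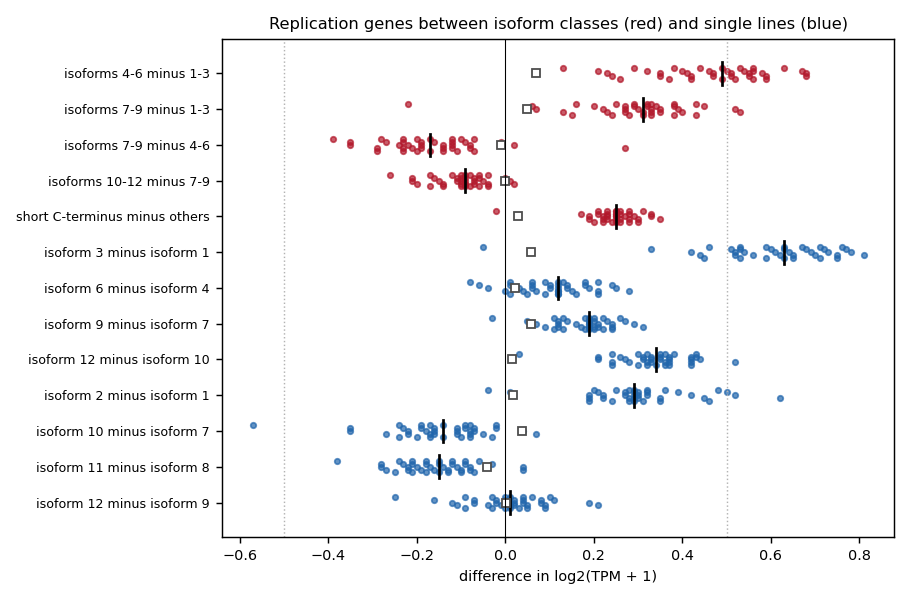
Differences in log2(TPM + 1) of the 39 genes (dots) between classes of isoforms (red, 12 line means) and between single lines (blue), with black bars at the members' median, open squares at the median of all tested genes and dotted lines at -0.5 and 0.5. The largest shift is that of the isoform 3 line over the isoform 1 line, with a median of 0.63, and the isoform 12 and isoform 9 lines have a median difference of 0.01.

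Beside the 39 members stood 74 other genes of replication and G1/S control, of which 73 were tested and CCND2 was too low. In the isoform 1 line 37 of the 73 fell and 2 rose, beside 12.7% and 7.63% of all genes, and in the isoform 2 line 18 fell and 2 rose, beside 9.73% and 6.63%. In the isoform 10 line 8 fell and 2 rose (3.43% and 3.73% of all genes), in the isoform 11 line 7 and 2 (5.01% and 3.21%) and in the isoform 7 line 6 and 2 (6.07% and 3.26%), so that the isoform 7 count is near that line's share of all genes. The medians were -0.52, -0.34, -0.24, -0.24 and -0.20 (log2). In the isoform 3, 4, 5, 6, 8 and 12 lines 0 fell, beside 1.47%, 1.67%, 0.513%, 0.6%, 3.36% and 0.886% of all genes. In the same lines 2, 1, 2, 1, 1 and 0 rose, beside 2.45%, 1.15%, 1.52%, 0.74%, 2.96% and 1.64%. In the isoform 9 line 2 fell and 1 rose, beside 2.73% and 1.47%. These counts are too small to set apart from the shares of all genes. DTL, which targets CDT1 for destruction in S phase, fell in 5 lines and stood at 15.8 ± 0.474 TPM (SD, n = 3) in the isoform 1 line against 39.5 ± 0.657 TPM in parental cells. E2F7, a repressing E2F, also fell in 5 lines, by 1.15 in the isoform 1 line, and MCM10, which helps to start the fork, in 4 lines, by 1.04. WDHD1, which ties the polymerases to the helicase, fell in 3 lines, by 1.16 in the isoform 1 line, and is named for its size after the values were seen.

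The genes that rose in most lines were POLD4 and CDKN1A. POLD4, the smallest subunit of the lagging strand polymerase, overlaps other genes on both strands. It measured 5.76 ± 0.331 TPM (SD, n = 3) in parental cells and 26.04 ± 1.80 TPM in the isoform 1 line, and it rose in 8 lines, by 2.00 (log2, SE 0.106, adjusted p = 4.74e-16, limma) there. The catalytic subunit POLD1 fell in the same line by 0.80. CDKN1A, the CDK inhibitor p21, measured 103.9 ± 3.29 TPM in parental cells, 341.5 ± 18.7 TPM in the isoform 1 line, 275.6 ± 18.5 TPM in the isoform 2 line and 226.5 ± 8.60 TPM in the isoform 10 line. CDKN1A rose in 6 lines, those of isoforms 1, 2, 3, 7, 10 and 11. Of these the isoform 3 line had 0 members called and the isoform 7 line 1. In the isoform 4 and isoform 6 lines CDKN1A stood at 97.7 ± 2.83 TPM and 99.0 ± 5.97 TPM, near the parental level.

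CDKN1C, another CDK inhibitor, fell in 3 lines and rose in 2, those of isoforms 4 and 5, where it stood at 30.0 ± 0.146 TPM and 27.2 ± 1.72 TPM against 16.6 ± 0.552 TPM. CDK6, the partner of D-type cyclins, fell in 3 lines, by 0.89 in the isoform 7 line, and rose in the isoform 5 line by 0.54. MYC stood at 154.8 ± 2.92 TPM in the isoform 1 line and 152.8 ± 1.41 TPM in parental cells. The difference was 0.02 (95% interval -0.06 to 0.10). Over the 12 lines the difference of MYC ran from -0.38 in the isoform 2 line to 0.12 in the isoform 4 line. MYC was not called in any line.

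Of 10 genes of G2 and mitosis, 9 fell in the isoform 1 line (median -0.67), beside 12.7% of all genes. In the isoform 2 line 2 fell (median -0.40), beside 9.73%. The isoform 10 and isoform 11 lines had 1 each, beside 3.43% and 5.01%, too few to set apart from those shares. The other 8 lines had 0. TOP2A, the topoisomerase that frees sister chromatids, fell in 4 lines, by 1.02 in the isoform 1 line. AURKA, a kinase of the spindle poles, was the member of that list not called in the isoform 1 line.

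**Figure D5:**
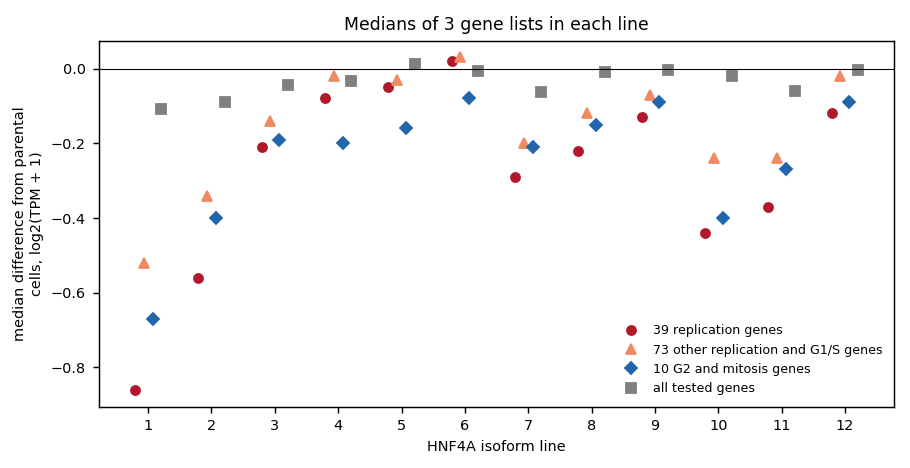
Median difference in log2(TPM + 1) from parental cells, for each of the 12 lines, over the 39 replication genes (red circles), 73 other replication and G1/S genes (orange triangles), 10 genes of G2 and mitosis (blue diamonds) and all tested genes (grey squares). In the isoform 1 line the medians are -0.86, -0.52, -0.67 and -0.107, and in the isoform 6 line the replication genes lie at 0.02.

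The authors' deposited table of comparisons with parental cells, which holds adjusted p-values and no minimum, had 38 members lower and 0 higher in the isoform 1 line, beside 16.7% and 20.9% of all its genes with an adjusted p. For the isoform 2 line the authors' deposited table had 35 lower and 2 higher, beside 17.3% and 21.8%, and for the isoform 10 line 37 lower and 0 higher, beside 13.8% and 18.4%. For the isoform 6 line the authors' deposited table had 2 lower and 9 higher, beside 7.03% and 9.83%. The fit here without a minimum had 1 lower and 2 higher in the isoform 6 line, with 5.94% of all genes higher. For isoforms 3, 4, 5, 7, 8, 9, 11 and 12 the authors had 28, 6, 14, 26, 30, 4, 34 and 14 lower. The fit here without a minimum had 22, 2, 4, 34, 23, 6, 36 and 9. The authors' shares of all genes for these lines are not given here, so these counts cannot be set against them.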

How the data were processed

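Poly(A) RNA-seq of 39 libraries in 13 groups of 3 was deposited as 13 tables, 1 per group. The authors deposited TPM per gene and library, and no column of the tables was left without a group. Tables of the 12 lines add columns of the authors' own test against parental cells: per the file headers a mean of normalized counts (a signal, not raw counts), log2 fold change and standard error, statistic (score), p-value and adjusted p-value. The submitters' processing notes name kallisto 0.44.0, Trimmomatic 0.36, FastQC 0.11.5, DESeq2 1.22.2 and GRCh38.p12, without their roles. The authors' columns entered no fit and are quoted as theirs.

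TPM are not counts, so limma 3.58.1 in R 4.3.3 was fitted on log2(TPM + 1) with the mean-variance trend, over the 15003 genes whose mean reached 1 TPM. All 39 libraries entered 1 fit with 13 groups and 26 residual degrees of freedom, and the 12 lines were each compared with parental cells. Calls needed an adjusted p under 0.05 and a difference of at least 0.5 (log2). Classes of isoforms were compared on the 12 line means with 6 residual degrees of freedom. The classes come from standard nomenclature and not from the labels. The columns of isoforms 4 and 5 were used by group alone: sample titles number the replicates, but the bracketed names that match the columns are the same in all 3 titles of a group, so no column could be tied to a number. Named members were those past a difference of 1 in any line, the member called in most lines in each role, the 3 with the largest range of line means and the 1 with the smallest. MCM6, RRM2 and SLBP were added after their values were seen. The members and lists were chosen with earlier results of these data known. The fits were tested on simulated data. Promoter letters were searched in the RefSeq table by exact match on both strands, and gene positions are those of GENCODE 29 on GRCh38. Alternatives were another pseudocount (0.1), other filters (none, or 5 TPM), median-of-ratios scaling, no trend, other minimums (1 or none), a replicate block, the 6 libraries of a comparison alone and each library left out in turn.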

Additional observations from a re-analysis of the deposited data

Results flagged for a closer look

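Among the 12 lines 39 members differed by limma's F test, which does not use the parental libraries, beside 36.6% of all genes. The 4 to 6 class differed from the 1 to 3 class in 17 members, all higher, beside 6.04% of all genes higher and 4.54% lower. The 7 to 9 class differed from the 1 to 3 class in 2, CLSPN and SLBP, beside 0.6% higher and 2.33% lower. The isoform 3 line differed from the isoform 1 line in 33 members, all higher, beside 5.11% higher and 4.27% lower. The isoform 12 line differed from the isoform 10 line in 1 member, RRM2, beside 0.86% higher and 1.55% lower. The isoform 2 line differed from the isoform 1 line in 2, RRM2 and CCNE2, beside 0.846% higher and 1.21% lower. The isoform 10 line differed from the isoform 7 line in 1, SLBP, beside 3.97% higher and 1.02% lower. A count of 1 is too small to set apart from these shares. These tests compare lines or classes directly, and each isoform is 1 line.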

How the results depend on the processing

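The differences of the 10 named members, each in the line where it was largest (isoform 8 for E2F2, isoform 1 for the others), kept their direction and their side of the threshold under the 130 alternatives run for them, which did not include the other minimums. The minimum difference moved the counts most. With a minimum of 1 the isoform 1 line had 3 members called (ORC1, MCM2 and UHRF1) and the isoform 2, 7, 8, 10 and 11 lines 0. At that minimum the F test had 8, the class contrasts 0, and each direct pair 0. The shares of all genes at a minimum of 1 are not given here, so these counts cannot be set against them. With no minimum the counts were 37 for isoform 2, 22 for isoform 3, 2 for isoform 4, 4 for isoform 5, 3 for isoform 6, 34 for isoform 7, 23 for isoform 8, 6 for isoform 9, 38 for isoform 10, 36 for isoform 11 and 9 for isoform 12. They were 36, 15 and 2 for the class contrasts 4-6 minus 1-3, 7-9 minus 1-3 and 7-9 minus 4-6, beside 34.6%, 11.6% and 16.9% of all genes. For pairs they were 4 (6 minus 4, beside 11.8% of all genes), 16 (9 minus 7, 15.4%), 38 (12 minus 10, 17.8%), 33 (2 minus 1, 17.5%), 11 (10 minus 7, 25.5%), 7 (11 minus 8, 12%) and 1 (12 minus 9, 16.7%). Median-of-ratios scaling gave 13 for isoform 2, 0 for isoform 7, 2 for isoform 11, 6 for 4-6 minus 1-3 and 0 for 7-9 minus 1-3, and member medians of -0.726, -0.439, 0.052 and -0.094 for isoforms 1, 2, 6 and 12. The cause was not tested, and the shares of all genes under this scaling are not given here. A pseudocount of 0.1 TPM gave 2 for isoform 7, and no filter gave 0 for 7-9 minus 1-3.

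Leaving out 1 library at a time, the counts ran from 1 to 3 for isoform 7, 0 to 1 for isoform 8, 3 to 12 for isoform 11, 10 to 22 for 4-6 minus 1-3, 1 to 3 for 7-9 minus 1-3, 24 to 34 for isoform 3 minus isoform 1, 0 to 3 for isoform 12 minus isoform 10 and 1 to 6 for isoform 2 minus isoform 1. For isoforms 1, 2 and 10 they ran from 36 to 38, 21 to 26 and 12 to 17. The class and F results left out 1 replicate number at a time and the isoform 3 library that stood apart. Alternatives for direct pairs, and that library left out of class and F results, were chosen after seeing the data.

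The replicate numbers were not taken to pair the libraries. Among 165 same-numbered pairs of libraries the correlation of deviations ran from -0.175 to 0.232 (median 0.054, against -0.029 for different numbers), and 38 were over 0.1. As a hint from the data, 29 of 33 libraries correlated best with their own number. A fit with the replicate block, which leaves out the unnumbered columns of isoforms 4 and 5, called 36, 22, 0, 0, 1, 1, 0, 13, 6 and 0 members in the lines of isoforms 1, 2, 3, 6, 7, 8, 9, 10, 11 and 12. Read depth is not held in TPM, so its effect on low genes is unknown.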

Other observations

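The HNF4A letters stood in the promoter window of 86 tested genes outside the replication list. Of these, 29.1% rose in the isoform 1 line, 26.7% in the isoform 2 line and 1.16% (1 gene) in the isoform 6 line. The shares of all tested genes were 7.63%, 6.63% and 0.74%. In the isoform 3, 7, 8, 10 and 11 lines 20.9%, 15.1%, 17.4%, 19.8% and 16.3% rose, beside 2.45%, 3.26%, 2.96%, 3.73% and 3.21%. In the isoform 4, 5, 9 and 12 lines 4.65%, 4.65%, 9.3% and 4.65% rose, beside 1.15%, 1.52%, 1.47% and 1.64%. Among the 1080 genes outside the list with E2F letters, 16.4% fell in the isoform 1 line, against 11.9% of 9298 genes without them, and 11.2% against 9.07% in the isoform 2 line and 4.17% against 2.9% in the isoform 10 line. In the other 9 lines the share that fell was lower with the letters than without them, as in the isoform 7 line with 5.19% against 5.93%. These shares are descriptions with no test.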
